A study of Saccharomyces cerevisiae with 24 samples.

Results

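The 38 transcripts described here encode proteins of the yeast mitochondrial ribosome. They were taken from the count table by a list of ORF names of nuclear MRPL genes for the large subunit (30 genes) and MRPS genes for the small subunit (8 genes), and they are 38 of the 6692 ORFs counted. The list does not hold every gene so named: *MRPL1*, *MRPL15*, *MRPL39*, *MRPL44* and *MRPS12* belong to a separate list of 39 other mitoribosomal protein genes, most of them with names such as RSM or MRP, that is given beside the members.

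Poly(A) RNA was sequenced from haploid *Saccharomyces cerevisiae* strains of the BY4741/BY4742 background at log phase, 24 hr and 48 hr of growth in medium with glucose. JS1416 carries *snf1*∆ together with *cyc8-G337S* (1 log library, 2 of 24 hr and 3 of 48 hr), its parent JS1394 is the *snf1*∆ mutant with *SNF1* replaced by a *kanMX4* cassette (3 libraries at each time), and JS1256 is the WT strain (3 libraries at each time). JS1416 was 1 spontaneous suppressor isolate of the *snf1*∆ strain, so its values describe a single clone, and every JS1416 library also lacks *SNF1*. The log phase samples are labelled 5 hr in YPD medium, whereas the methods give 6 hr and SC medium, and both are given because every comparison with log phase rests on these samples.

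The libraries held 747098 to 29070805 counts, of which the 38 members took 0.0744% to 0.180%. *SNF1* itself was at 0.182 to 4.08 CPM (counts scaled to the corrected size of each library) in the *snf1*∆ and JS1416 libraries and at 46.2 to 71.7 CPM in the WT libraries, but it cannot tell JS1416 from *snf1*∆, which both lack the gene. At 48 hr, the library labelled *snf1*∆ replicate 3 correlated better over all genes with JS1416 replicate 2 (r = 0.984) than with *snf1*∆ replicates 1 and 2 (0.905 and 0.901), and the library labelled JS1416 replicate 1 correlated better with those *snf1*∆ libraries (0.984 and 0.980) than with JS1416 replicates 2 and 3 (0.928 and 0.884). Results at 48 hr are therefore given with and without these 2 libraries. They were picked by their values, so calls gained by leaving them out are not independent support for a strain difference.

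Mitochondrial ribosomes translate the few mRNAs of the mitochondrial genome, nearly all of which encode subunits of the respiratory chain and the ATP synthase. Their RNAs come from that genome, but almost all of their proteins are made in the cytosol from nuclear mRNAs and imported, many through a cleaved, positively charged sequence at the N-terminus. Snf1, the yeast AMP-activated kinase, relieves glucose repression when glucose runs out, and Cyc8 is part of the Cyc8/Tup1 corepressor that acts with Mig1 on repressed promoters. Puf3 is an RNA-binding protein of the Pumilio family that binds a short sequence in the 3′ untranslated regions of many mRNAs for mitochondrial proteins and controls their decay, translation and localization.

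All 38 members had a match to the Puf3 binding sequence downstream of their coding region. The letters TGTANATA (N is any base) were searched on the transcribed strand in the 200 bases after the stop codon and were found in 38 of 38 members (100%), in 38 of the 39 other mitoribosomal genes (97.4%) and in 843 of the 5988 genes with reference sequence (14.1%). The shares were 86.8% and 10.2% in a window of 100 bases, and 100% and 16.2% in one of 300 bases. Within 200 bases the match was also present in 12 of 12 mitochondrial tRNA synthetases (100%), 7 of 9 mitochondrial translation factors (77.8%), 11 of 15 translational activators (73.3%), 4 of 6 genes of mitoribosome assembly and rRNA modification (66.7%) and 1 of 2 genes of the mitochondrial RNA polymerase. It was present in 12.1% of the respiratory chain and ATP synthase genes, 10.5% of the single-copy cytosolic ribosomal protein genes and 0 of 7 regulators. These are matches in the genome sequence, and no binding was measured. The sites below belong to the members that changed most in the comparisons that follow, in either direction, and are printed with flanking bases. Capitals mark the 8 matched bases, coordinates are those of RefSeq assembly R64, and the distance of a first match from the stop codon ranged from 8 to 139 bases over the members (median 51).
*MRPL28* (chrIV:1386538-1386565, plus strand): tgtctcctgcTGTAAATAactgatgatc
*MRPL4* (chrXII:1015468-1015495, plus strand): ccctctctccTGTAAATAtatatatata
*MRPL8* (chrX:315715-315742, minus strand): tgtattccctTGTAAATAtatagatgac
*MRPL33* (chrXIII:842250-842277, plus strand): gacttatataTGTATATAgtattatttt
*MRPL31* (chrXI:185226-185253, minus strand): aaatttcatcTGTATATAgtttaatcat
*MRPL19* (chrXIV:292089-292116, minus strand): tgatctattcTGTAAATAtgtatataag
*MRPL32* (chrIII:119207-119234, plus strand): aacttaagccTGTATATAgaaacttaat
*MRPL11* (chrIV:99268-99295, plus strand): tattcaatcaTGTACATAcatcatcaaa
*MRPS16* (chrXVI:528882-528909, minus strand): atgtatatgtTGTATATAtgttttactt
*MRPL25* (chrVII:637009-637036, minus strand): tgtctaatcaTGTAAATAattttgtgat
*MRPL37* (chrII:741639-741666, plus strand): ttggtatcctTGTAAATAaatatgtgtg

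The first match of each gene is shown. In 9 members there was a second match, for 47 sites in all. A feature noticed only when the sequences were printed was a C placed 2 bases before the match, the position at which Puf3 is known to have an extra pocket for cytosine. It preceded a match in 32 of 38 members (84.2%), in 28 of 38 other mitoribosomal genes with a match (73.7%) and in 253 of the 837 genes overall whose match left room for that base (30.2%). The open position N of the first match was A in 17 members, T in 12, C in 8 and G in 1.

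**Figure D1:**
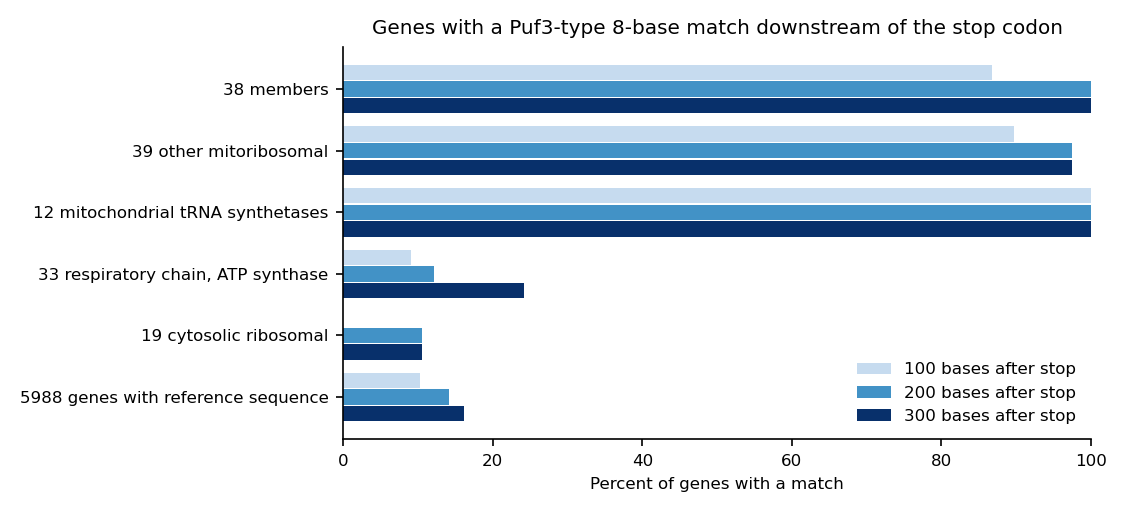
Percent of genes (x axis) with the 8-base Puf3 sequence on the transcribed strand within 100, 200 or 300 bases after the stop codon, for 6 gene sets (y axis). The 38 members reach 100% within 200 bases, beside 14.1% of all genes.

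Upstream sequence was searched for the elements of known regulators. In the 250 bases before to 50 bases after the start codon, on both strands, CCAAT (bound by the Hap2/3/4/5 complex of respiratory genes) was present in 42.1% of members and 43.3% of all genes, and the Mig1 core CCCCNC in 7.89% and 13.0%. The Msn2/4 element AGGGG occurred in 13.2% of members and 21.7% of all genes, and the ribosome biogenesis elements GCGATGAG and TGAAAAATT in 5.26% and 2.63% of members, beside 3.94% and 6.38% of all genes. In the 500 bases before the start codon, CCAAT was in 57.9% of members and 62.4% of all genes, and CCCCNC in 23.7% and 23.1%. In that window AGGGG was in 18.4% and 34.1%, GCGATGAG in 5.26% and 4.84%, and TGAAAAATT in 7.89% and 8.65%. In the encoded proteins, the first 30 residues held a median of 5 basic and 0 acidic residues in members and 3 of each in all genes, and 57.9% of members had no acidic residue there, beside 12.3% of all genes. The trait is not particular to the members. The respiratory chain and ATP synthase list also had medians of 5 and 0, with 69.7% lacking an acidic residue. That share was 88.9% in the translation factors and 41.0% in the other mitoribosomal genes. Every member had 1 coding exon, with a median coding length of 676.5 bases in members and 1197 bases over all genes.

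At log phase the transcripts lay within a narrow range. Per kilobase of coding length, the members' median level was 38.98 CPM in *snf1*∆ and 43.8 CPM in WT, above the medians of 28.0 and 28.1 CPM over 5969 genes. The highest and the lowest member differed 4.82-fold in CPM in *snf1*∆ and 5.29-fold in WT. No member was called between *snf1*∆ and WT at log by edgeR's quasi-likelihood test (adjusted p under 0.05 by Benjamini-Hochberg, as for every call here), which called 1.69% of the 6616 genes tested higher and 0.423% lower. DESeq2 and a fit with the replicate number as a block, which applies to this pair of groups, also gave 0 members, and 2 members had an unadjusted p under 0.05. The largest difference was that of *MRPL51* (YPR100W, a mitochondria-specific large subunit protein), at a log2 fold change of −0.38 (adjusted p = 0.426).

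Between log phase and 24 hr, when WT cells pass the diauxic shift, the WT transcripts spread apart rather than moving together. Here 11 members were called higher at 24 hr (28.9%, beside 41.2% of all genes) and 12 lower (31.6%, beside 38.5% of all genes), and 15 were not called. The fit also held the later libraries that correlated better with another strain, which have no part in this comparison. Without them 30 members were called, 17 higher (beside 2920 of all 6615 genes) and 13 lower (beside 2699). With only the groups compared in the fit, 30 were also called, but 13 higher (beside 2736 of all 6470 genes) and 17 lower (beside 2874). Scaling by library size alone, with no correction for the composition of the libraries, moved the median of all genes by −0.51 on the log2 scale. The calls became 6 higher (beside 1971 of all 6616 genes) and 19 lower (beside 3154), with *MRPL7*, *MRPL51* and *MRPS9* turned below 0. The members' median log2 fold change was 0.11 and that of all genes 0.10. Their SD in log2 CPM was 0.94 at 24 hr and 0.48 at log, and at 24 hr the highest member stood 18.4-fold above the lowest. No such SD was computed over all genes or the other lists, so a wider spread is not shown to be particular to the members. Bulk levels are shares of the RNA in each library, so fewer transcripts per cell and fewer cells with the transcript cannot be told apart.

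**Figure D2:**
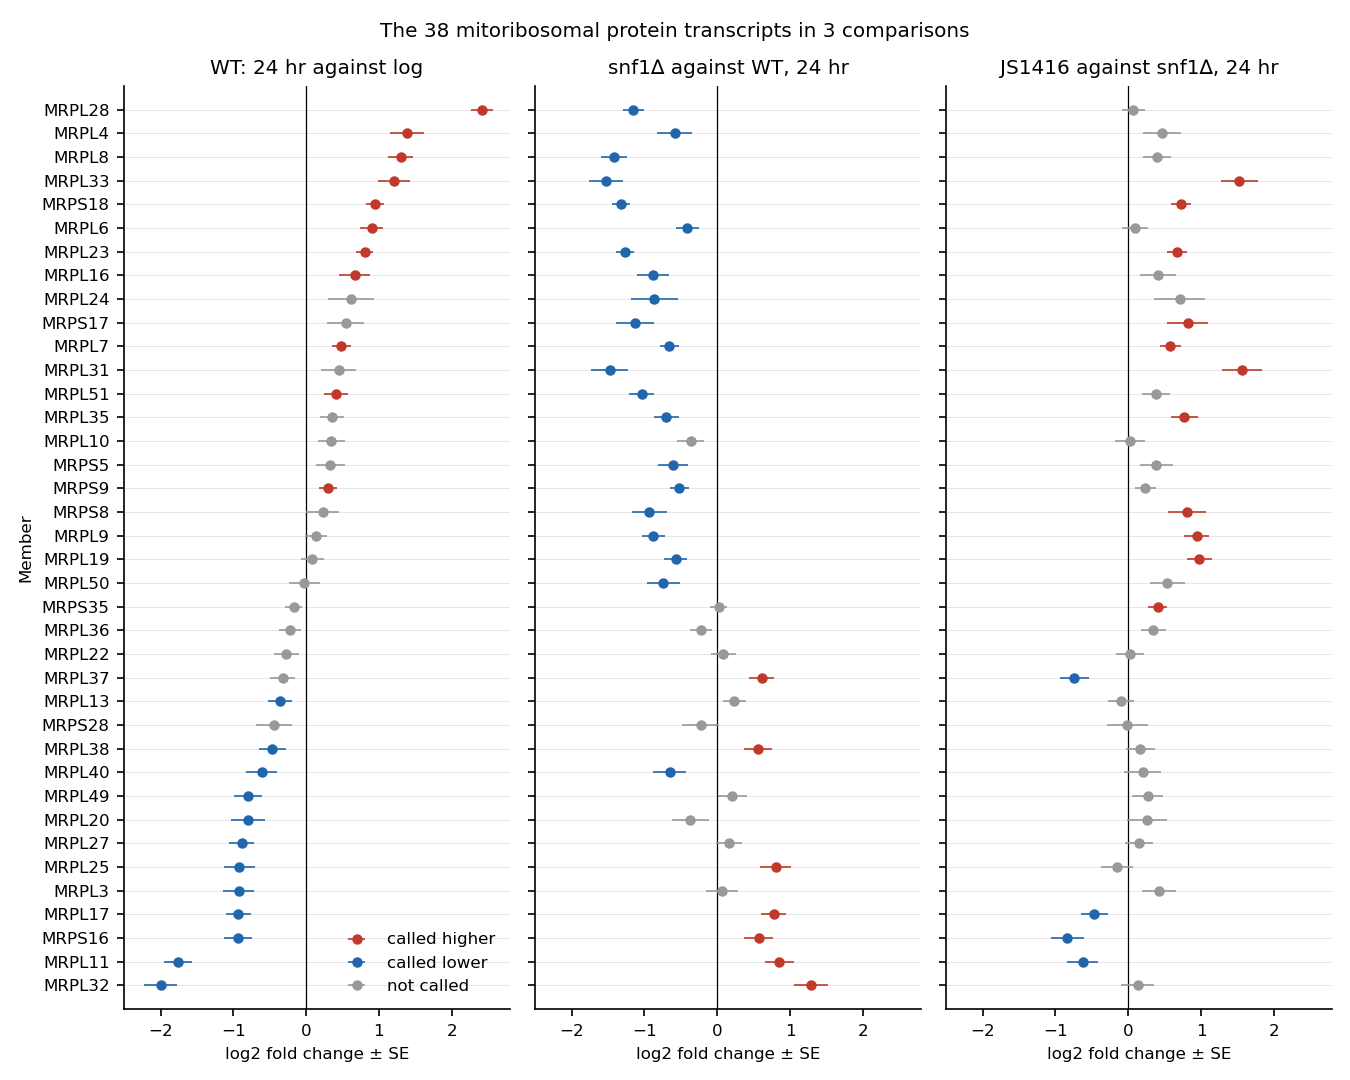
log2 fold change with its SE (x axis) of each of the 38 members (y axis, in the order of the left panel) in 3 comparisons. Red and blue points were called higher and lower at an adjusted p under 0.05, and the left panel runs from *MRPL32* at −1.999 to *MRPL28* at 2.42.

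*MRPL28* (YDR462W), which encodes a large subunit protein without a bacterial relative, had the greatest increase. Its level was 46.5, 51.2 and 61.0 CPM in WT at 24 hr, against 9.997, 9.43 and 10.4 CPM in WT at log. Every library at 24 hr lay far above every log library, and the log2 fold change was 2.42 ± 0.15 (SE, n = 3 each, edgeR adjusted p = 5.48e-12).

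*MRPL4* (YLR439W), the relative of bacterial L29 near the exit of the peptide tunnel, was at 52.0, 42.5 and 46.4 CPM in WT at 24 hr, against 22.5, 13.8 and 17.8 CPM at log. The times did not overlap, and the log libraries varied more relative to their mean (log2 fold change 1.39 ± 0.24). *MRPL8* (YJL063C), the relative of bacterial L17, was at 56.7, 51.7 and 74.5 CPM at 24 hr, against 22.4, 27.5 and 24.6 CPM at log (1.30 ± 0.17). After it came *MRPL33* (YMR286W, relative of L30), with a log2 fold change of 1.21, and *MRPS18* (YNL306W, relative of S11 on the platform of the small subunit), with 0.94.

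In the other direction, *MRPL32* (YCR003W) fell the most. Its protein, the relative of bacterial L32, is trimmed by the m-AAA protease of the inner membrane before it joins the large subunit. The transcript was at 4.97, 4.04 and 6.60 CPM in WT at 24 hr, against 16.6, 23.9 and 22.9 CPM at log, with every library at 24 hr well under the lowest log library (log2 fold change −1.999 ± 0.23, edgeR adjusted p = 7.04e-08).

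*MRPL11* (YDL202W), the relative of bacterial L10 at the base of the stalk, was at 7.02, 8.99 and 7.64 CPM in WT at 24 hr, against 24.9, 28.3 and 27.2 CPM at log. Its log2 fold change was −1.76 ± 0.19, with narrow spreads at both times. *MRPS16* (YPL013C), the relative of bacterial S16, was at 17.2, 18.0 and 20.2 CPM at 24 hr, against 34.9, 34.6 and 36.8 CPM at log (−0.93 ± 0.19). *MRPL17*, *MRPL3*, *MRPL25*, *MRPL27* and *MRPL20*, all mitochondria-specific large subunit proteins, followed with log2 fold changes between −0.93 and −0.80. The remaining members called lower were *MRPL13*, also mitochondria-specific, and *MRPL38*, *MRPL40* and *MRPL49*, of bacterial families.

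Both subunits held members of either direction. Of the 30 large subunit members 9 were called higher and 11 lower, and of the 8 small subunit members 2 were called higher and 1 lower. Among the 26 members of bacterial protein families 9 were called higher and 6 lower (median 0.27), and among the 12 mitochondria-specific members 2 were called higher and 6 lower (median −0.34). No test was made between these classes. A match to the Puf3 sequence was present in members of both directions, since every member has it.

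The 33 respiratory chain and ATP synthase genes all moved one way. All 33 rose in WT at 24 hr, with a median log2 fold change of 3.64 and *SDH4* the highest at 5.09. All 19 single-copy cytosolic ribosomal protein genes fell, with a median of −5.38. The values nearest to 0 in these lists were 2.16 and −4.20, larger than the shift of scaling by library size alone. The 39 other mitoribosomal genes were mixed like the members, with 19 called higher, 10 lower and a median of 0.42, between *MRP13* at −2.32 and *RSM7* at 2.65.

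The rest of the mitochondrial translation genes were also mixed in WT at 24 hr against log. Of 9 translation factors 3 were called higher, with *MEF2*, which acts in ribosome recycling, at 4.29, and 1 was lower. Of 12 tRNA synthetases 3 were higher, with *MSK1* (for lysine) at 2.15, and 3 lower, with *MST1* (for threonine) at −1.36. Of 15 translational activators of single mitochondrial mRNAs 5 were higher, with *PET122* at 2.06, and 7 lower, with *CBS1* at −1.99. Of 6 genes of mitoribosome assembly and rRNA modification 3 were higher and 1 lower, and of the 2 genes of the mitochondrial RNA polymerase *RPO41*, the catalytic subunit, was higher at 0.69.

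**Figure D3:**
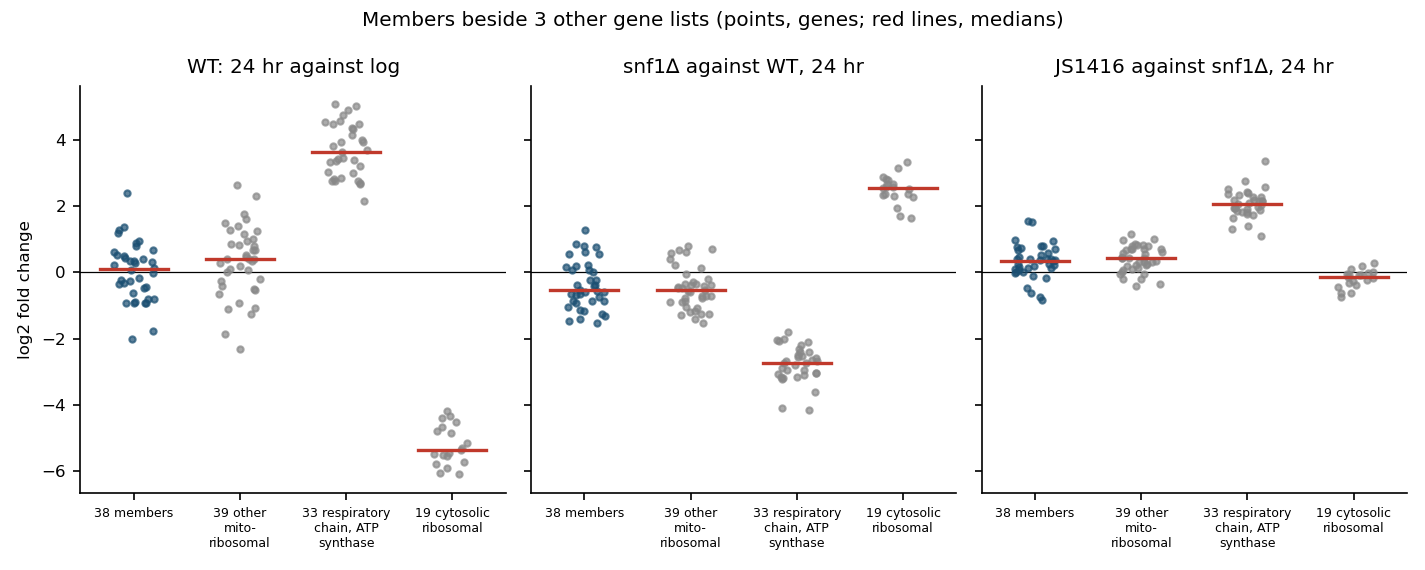
log2 fold change (y axis) of the 38 members and of 3 other gene lists (x axis) in 3 comparisons, with a red line at each list's median. In WT at 24 hr against log the members' median is 0.11, beside 3.64 for the respiratory chain list and −5.38 for the cytosolic ribosomal list.

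In the *snf1*∆ mutant over the same interval, 3 members had risen by 24 hr relative to log (beside 36.5% of all genes) and 12 had fallen (beside 30.5%), with a median log2 fold change of −0.24 beside 0.09 over all genes. The 3 were *MRPL28* (1.13), *MRPL4* (0.79) and *MRPL6* (0.52), each also called higher in WT. The deepest decrease was that of *MRPL40* (YPL173W, relative of bacterial L24), at −1.23, followed by *MRPL20* at −1.001. With only the *snf1*∆ groups at these times in the fit, 24 members were called, 3 higher (beside 2525 of all 6484 genes) and 21 lower (beside 2499). Library size alone, which moved the median of all genes by −0.16, gave 2 higher (beside 2011 of all 6616 genes) and 19 lower (beside 2236).

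The responses of the strains were compared directly as a difference of log2 fold changes in the same model. It was called higher in *snf1*∆ than in WT for 6 members (beside 29.3% of all genes) and lower for 14 (beside 25.6%), with a median difference of −0.45 beside 0.10 over all genes. Scaled by library size alone, which moved the median of all genes by 0.35, the split was 10 higher and 6 lower, while no called member turned in direction.

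At 24 hr itself, the *snf1*∆ transcripts lay lower than those of WT for most members. Of the 38, 21 were called lower in *snf1*∆ (55.3%, beside 30.3% of all genes) and 7 higher (18.4%, beside 33.7% of all genes), with a median log2 fold change of −0.54 beside 0.10 over all genes. Scaling by library size alone raised the median of all genes by 0.42. It gave 12 members higher (beside 3243 of all 6616 genes) and 10 lower (beside 1258), with *MRPL6* turned just above 0. The members' median minus that of all genes was −0.64 under either scaling. The members were also closer together in *snf1*∆, with an SD of 0.53 in log2 CPM and a 4.81-fold range, against an SD of 0.94 and an 18.4-fold range in WT.

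*MRPL33* (YMR286W) showed the widest gap. It had 16.8, 18.3 and 20.4 CPM in *snf1*∆ at 24 hr, against 54.1, 50.1 and 57.5 CPM in WT, and every *snf1*∆ library lay far under every WT library (log2 fold change −1.53 ± 0.23, n = 3 each, edgeR adjusted p = 8.66e-06). Per kilobase it was the most abundant member in WT at 24 hr, at 206.5 CPM, whereas in *snf1*∆ that place was taken by *MRPS16*, at 74.7 CPM.

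*MRPL31* (YKL138C), a mitochondria-specific large subunit protein, was at 14.7, 13.5 and 20.3 CPM in *snf1*∆, against 44.7, 43.6 and 49.0 CPM in WT. The strains were far apart here (log2 fold change −1.48 ± 0.26), although the increase from log phase in WT was not called (0.45, adjusted p = 0.099). *MRPL8* was at 22.8, 26.6 and 19.7 CPM in *snf1*∆, against 56.7, 51.7 and 74.5 CPM in WT (−1.42 ± 0.18). *MRPS18*, *MRPL23* (YOR150W, relative of L13), *MRPL28*, *MRPS17* (YMR188C, relative of S17) and *MRPL51* were also lower in *snf1*∆, by log2 fold changes of −1.33, −1.27, −1.16, −1.13 and −1.04. The level of *MRPL51* is uncertain, because its ORF overlaps YPR099C on the opposite strand by 323 bp and the strand setting of the counting is not stated. Some lower calls rested on single libraries. Without WT replicate 3, 16 members were called lower, and *MRPL4* (−0.59), *MRPL6* (−0.34), *MRPL24* (−0.68), *MRPL40* (−0.35) and *MRPS5* (−0.44) were not called. All of these but *MRPL40* were also lost without some other single library.

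Another 7 members ran against this majority and were higher in *snf1*∆. *MRPL32* stood at 13.9, 9.63 and 15.0 CPM in *snf1*∆ at 24 hr, against 4.97, 4.04 and 6.60 CPM in WT, with no overlap (log2 fold change 1.29 ± 0.24, n = 3 each, edgeR adjusted p = 7.67e-05). *MRPL11* was at 13.5, 12.5 and 16.4 CPM in *snf1*∆, against 7.02, 8.99 and 7.64 CPM in WT (0.85 ± 0.20). *MRPL25* (YGR076C), a mitochondria-specific large subunit protein, was at 19.2, 19.8 and 24.3 CPM in *snf1*∆, against 11.99, 11.2 and 13.2 CPM in WT (0.81 ± 0.21). The other 4 were *MRPL17* (0.78), *MRPL37* (0.61), *MRPS16* (0.57) and *MRPL38* (0.56). Of these, *MRPS16* was not called without WT replicate 1 (0.52) or *snf1*∆ replicate 3 (0.49). *MRPL38* was not called without WT replicate 2 (0.49) or 3 (0.48) or *snf1*∆ replicate 3 (0.41). This comparison and that of 24 hr with log in WT share the WT libraries at 24 hr, so their values are not independent.

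Among the other lists at 24 hr, all 33 respiratory chain and ATP synthase genes were lower in *snf1*∆ (median −2.74, *SDH1* the lowest at −4.17) and all 19 cytosolic ribosomal protein genes higher (median 2.57). Of the 39 other mitoribosomal genes, 23 were called lower and 5 higher, with a median of −0.54, between *RSM7* at −1.53 and *RSM22* at 0.81. In the 2 lists that moved as a whole the values nearest to 0, −1.80 and 1.66, exceeded the shift of the scaling. Of the translation factors 3 were higher and 5 lower (*MEF2* at −3.37), of the tRNA synthetases 4 and 2 (*MSK1* at −2.53), of the translational activators 3 and 5 (*PET111*, for a cytochrome c oxidase subunit, at −2.31), and of the assembly and modification genes 4 and 1. *RPO41* was lower, at −1.58.

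Among 7 regulators (*PUF3*, *HAP1* to *HAP5* and *SFP1*), 1 was higher and 5 were lower in *snf1*∆ than in WT at 24 hr, and 6 were higher and 0 lower in WT at 24 hr than at log. *PUF3* (YLL013C) was at 36.8, 30.4 and 24.1 CPM in *snf1*∆ at 24 hr, against 70.5, 75.7 and 71.1 CPM in WT (log2 fold change −1.27, adjusted p = 2.65e-06), and *HAP4* (YKL109W), the activating subunit of the Hap complex, had a log2 fold change of −3.41. In WT, *PUF3* was higher at 24 hr than at log by 1.76 and *HAP4* by 2.97. The part of either regulator in the members' levels was not tested.

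**Figure D4:**
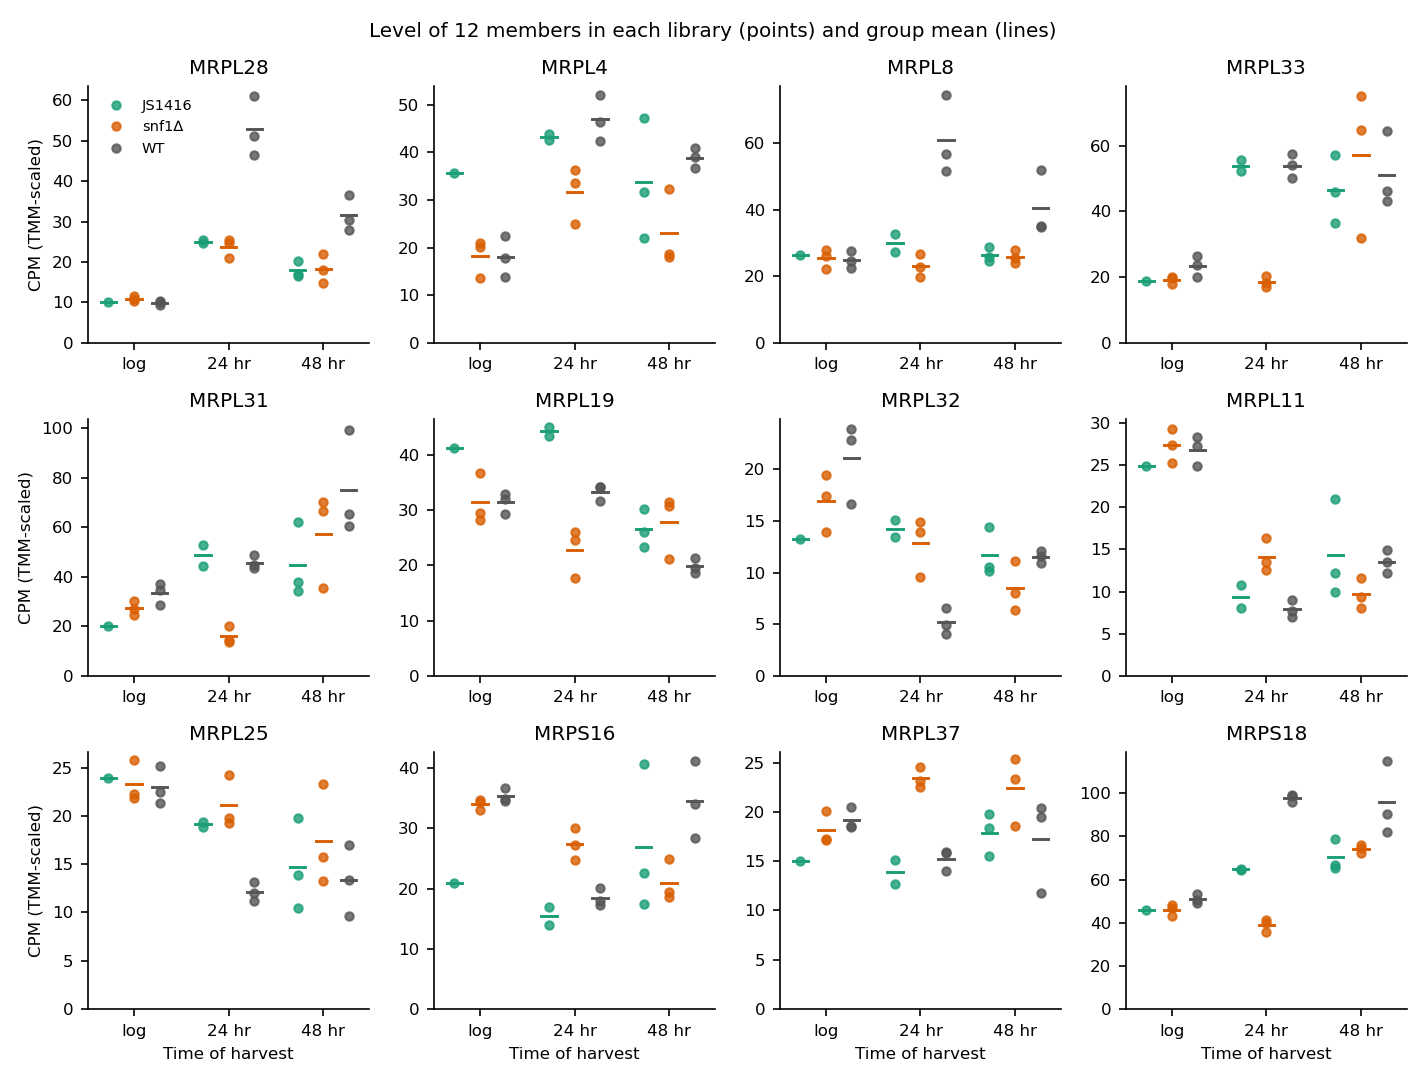
CPM (y axis, from 0) of 12 members in every library (points) with group means (lines), by time of harvest (x axis) and strain, JS1416 in green, *snf1*∆ in orange and WT in grey. *MRPL33* and *MRPL31* show *snf1*∆ libraries at 24 hr well under those of JS1416 and WT, and *MRPL28* and *MRPL8* show both mutants under WT at 24 hr.

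In JS1416 at 24 hr more members were higher than lower relative to *snf1*∆, and the outcome differed by gene. Against *snf1*∆, 11 were called higher in JS1416 (28.9%, beside 20.1% of all genes) and 4 lower (10.5%, beside 27.4% of all genes), with a median log2 fold change of 0.36 beside −0.16 over all genes. This split rests on the scaling. DESeq2's size factors (RLE) in edgeR, which moved the median of all genes by 0.11, gave 15 higher and 2 lower (beside 1536 and 1491 of all 6616 genes). Library size alone, which moved the median of all genes by −0.82, gave 2 higher and 18 lower (beside 500 and 4388 of all genes). The members' median minus that of all genes was 0.52 in the main analysis and with DESeq2's size factors, and 0.53 with library size alone. With only these groups in the fit, 24 members were called, 21 higher (beside 1993 of all 6475 genes) and 3 lower (beside 1957).

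*MRPL31* was at 44.6 and 52.7 CPM in JS1416 at 24 hr, against 14.7, 13.5 and 20.3 CPM in *snf1*∆. Both JS1416 libraries stood far above *snf1*∆, and at 24 hr the WT libraries were at 44.7, 43.6 and 49.0 CPM (log2 fold change against *snf1*∆ 1.56 ± 0.28, n = 2 against 3, edgeR adjusted p = 0.000121). *MRPL33* was at 52.2 and 55.6 CPM in JS1416, against 16.8, 18.3 and 20.4 CPM in *snf1*∆ (1.53 ± 0.25), and per kilobase it was again the most abundant member. *MRPL19* (YNL185C), the relative of bacterial L11 at the GTPase-associated centre, was at 45.1 and 43.5 CPM in JS1416, against 25.97, 24.6 and 17.8 CPM in *snf1*∆ (0.98 ± 0.17). The WT libraries were at 34.2, 31.7 and 34.2 CPM, and *MRPL19* was not called between JS1416 and WT. Its ORF overlaps YNL184C on the same strand by 113 bp, so reads of the shared stretch cannot be assigned to either, and with library size alone its difference was 0.17 and not called. *MRPL31* and *MRPL33* stayed called with library size alone, at 0.74 and 0.71. *MRPL9* (YGR220C, relative of L3) was also higher, by 0.94. The other 7 called higher, *MRPS17*, *MRPS8*, *MRPL35*, *MRPS18*, *MRPL23*, *MRPL7* and *MRPS35*, had log2 fold changes from 0.40 to 0.82 and turned to values below 0 with library size alone. Of these, *MRPS17* was not called without *snf1*∆ replicate 1 (0.73) or 2 (0.76) or JS1416 replicate 2 (0.65). *MRPS8* was not called without JS1416 replicate 1 (0.74), nor *MRPS35* without JS1416 replicate 1 (0.43) or 2 (0.37).

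The 4 members lower in JS1416 than in *snf1*∆ were *MRPS16*, *MRPL37*, *MRPL11* and *MRPL17*. *MRPS16* was at 14.0 and 17.0 CPM in JS1416, against 24.8, 27.1 and 30.1 CPM in *snf1*∆ (log2 fold change −0.83 ± 0.22, n = 2 against 3, edgeR adjusted p = 0.00423). The WT libraries began at 17.2 CPM, and *MRPS16* was not called between JS1416 and WT. *MRPL37* (YBR268W), a mitochondria-specific large subunit protein, was at 15.2 and 12.7 CPM in JS1416, against 24.5, 22.5 and 23.2 CPM in *snf1*∆ (−0.74 ± 0.20). *MRPL11* was at 8.05 and 10.8 CPM in JS1416, against 13.5, 12.5 and 16.4 CPM in *snf1*∆ (−0.62 ± 0.21), a call that was lost with DESeq2 (−0.53) and with its size factors (−0.52). *MRPL17* (YNL252C) was at 14.9 and 20.03 CPM in JS1416, against 21.2, 25.03 and 25.1 CPM in *snf1*∆ (−0.47 ± 0.19, edgeR adjusted p = 0.0459). That call was lost with DESeq2 (−0.37), with its size factors (−0.36) and with only these groups in the fit (−0.36). Single libraries also decided these calls: *MRPS16* was not called without JS1416 replicate 1 (−0.69), *MRPL37* without JS1416 replicate 2 (−0.62), *MRPL11* without JS1416 replicate 1 (−0.41) or *snf1*∆ replicate 3 (−0.48), and *MRPL17* without JS1416 replicate 1 (−0.25) or *snf1*∆ replicate 2 (−0.43) or 3 (−0.42).

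Some members that differed between *snf1*∆ and WT did not differ detectably between the mutants. *MRPL32*, *MRPL28* and *MRPL8* were not called between JS1416 and *snf1*∆ (log2 fold changes 0.13, 0.07 and 0.40). Set against WT at 24 hr, JS1416 had 4 members called higher (beside 20.2% of all genes) and 5 lower (beside 22.7%), with a median of −0.11 beside −0.06 over all genes. The 4 were *MRPL32* (1.42), *MRPL38* (0.73), *MRPL25* (0.65) and *MRPS35* (0.42), and the 5 were *MRPL28* (−1.08), *MRPL8* (−1.02), *MRPL51* (−0.66), *MRPL23* (−0.60) and *MRPS18* (−0.60). Library size alone, which moved the median of all genes by −0.39, gave 1 member higher and 15 lower, and DESeq2's size factors 6 higher and 5 lower.

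For comparison, JS1416 at 24 hr had all 33 respiratory chain and ATP synthase genes above *snf1*∆ (median 2.07, *SDH1* at 3.38), and of the 39 other mitoribosomal genes 17 were called higher and none lower (median 0.44), with *MRPL15* at 1.17 and *NAM9* at 0.99. The respiratory gene nearest to 0 stood at 1.10, above the shift of the scaling. Of the 19 cytosolic ribosomal protein genes 0 were higher and 3 lower. The translation factors had 4 higher and 2 lower (*MEF2* at 2.29 and *FMT1*, which formylates the initiator tRNA, at −1.72), the tRNA synthetases 1 and 4, the translational activators 4 and 0, the assembly and modification genes 0 and 3, and *RPO41* was higher at 1.12. Of the 7 regulators 3 were higher and 1 lower. *HAP4* was at 981.5 and 983.6 CPM in JS1416, against 97.9, 89.7 and 74.3 CPM in *snf1*∆ (3.49). *PUF3* was at 40.0 and 48.4 CPM in JS1416, against 36.8, 30.4 and 24.1 CPM in *snf1*∆ (0.55). The *PUF3* call was lost without *snf1*∆ replicate 3 (0.39) or JS1416 replicate 2 (0.41), and its direction turned to −0.26 with library size alone.

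At log phase JS1416 had a single library, so its values carry no test. In it 11 members lay above all 6 *snf1*∆ and WT libraries, 16 below all of them and 11 within their range. *MRPS17* was the farthest below, at 12.9 CPM in JS1416, against 27.3 to 31.05 CPM in *snf1*∆ and 26.3 to 33.9 CPM in WT. *MRPL4* was the farthest above, at 35.6 CPM in JS1416, against 13.5 to 20.9 CPM in *snf1*∆ and 13.8 to 22.5 CPM in WT. The highest member stood 7.48-fold above the lowest in this library.

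**Figure D5:**
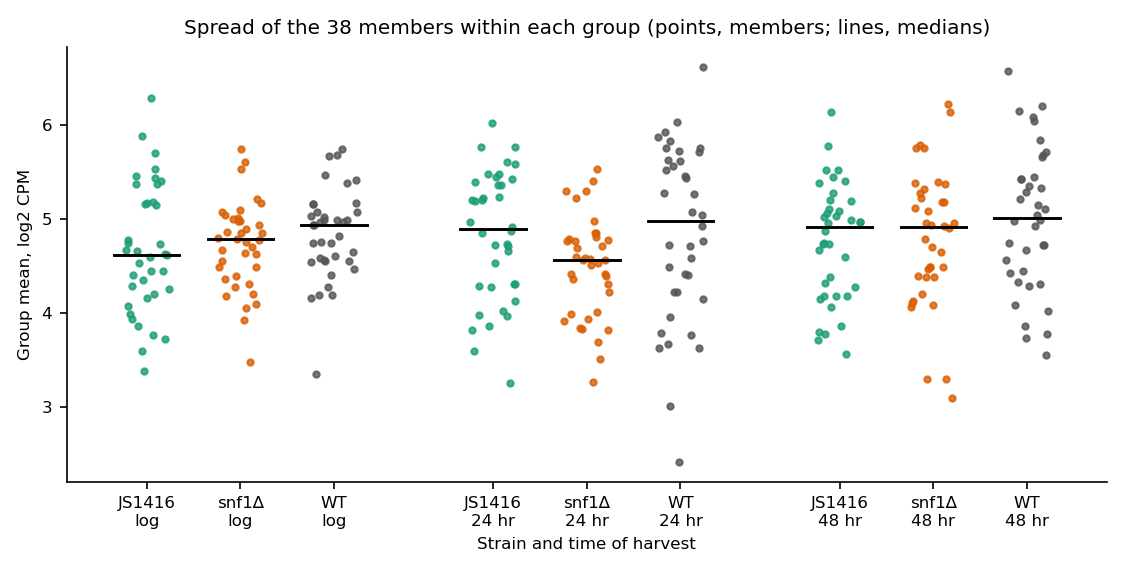
Group mean log2 CPM (y axis) of each of the 38 members (points) in the 9 groups of strain and time (x axis), with medians as black lines. The SD of the points is 0.94 in WT at 24 hr and 0.53 in *snf1*∆ at 24 hr.

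By 48 hr the WT members lay closer together than at 24 hr, with an SD of 0.76 in log2 CPM and an 8.09-fold range. Of the members, 7 were called higher at 48 hr (beside 19.6% of all genes) and 4 lower (beside 19.8%). Scaled by library size alone, which moved the median of all genes by 0.48, 27 were higher (beside 2853 of all 6616 genes) and 0 lower (beside 244). *MRPL32* was at 12.1, 11.6 and 10.9 CPM in WT at 48 hr, against 4.97, 4.04 and 6.60 CPM at 24 hr (log2 fold change 1.12), and *MRPS16* (0.90) and *MRPL11* (0.77) also rose. *MRPL28* was at 27.9, 30.5 and 36.6 CPM in WT at 48 hr, against 46.5, 51.2 and 61.0 CPM at 24 hr (−0.74). *MRPL19* (−0.75), *MRPL8* (−0.59) and *MRPL23* (−0.48) were lower as well. With library size alone *MRPL23* turned above 0 and none of these decreases was called. Without WT replicate 2 at 24 hr, 7 members were called, 3 higher and 4 lower.

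In *snf1*∆ from 24 hr to 48 hr, 12 members were called higher (beside 19.8% of all genes) and 1 lower (beside 21.5%). *MRPL31* was at 66.5, 70.0 and 35.5 CPM in the libraries labelled *snf1*∆ at 48 hr, against 14.7, 13.5 and 20.3 CPM at 24 hr. The library labelled replicate 3 lay lowest of the 48 hr libraries but above all those at 24 hr (log2 fold change 1.79). *MRPL33* was at 75.2, 64.7 and 31.8 CPM at 48 hr, against 16.8, 18.3 and 20.4 CPM at 24 hr (1.61). Without the 2 doubtful libraries 20 members were called, 15 higher (beside 26.2% of all genes in that fit) and 5 lower (beside 27.8%), and *MRPL31* and *MRPL33* were higher by 2.03 and 1.90. Library size alone, which moved the median of all genes by −0.45, gave 6 higher (beside 624 of all 6616 genes) and 12 lower (beside 2675). In JS1416 over that interval no member was called higher (beside 9.98% of all genes) and 1, *MRPL19*, was called lower (−0.79, beside 8.72% of all genes). DESeq2 gave 3 members, all lower, and 5 had an unadjusted p under 0.05. Without the doubtful libraries 7 were called, 1 higher (beside 17.2% of all genes) and 6 lower (beside 17.9%). Library size alone, which moved the median of all genes by 0.48, gave 11 higher (beside 2918 of all 6616 genes) and 0 lower (beside 114). *MRPL19* was then not called.

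At 48 hr, *snf1*∆ had 2 members higher than WT (beside 18.1% of all genes) and 9 lower (beside 17.7%). The 2, *MRPL19* (0.48) and *MRPS35* (0.34), had libraries that overlapped between the strains, were not called by DESeq2 and turned in direction with library size alone. That scaling moved the median of all genes by −0.51 and gave 0 higher (beside 491 of all 6616 genes) and 27 lower (beside 2928). The lower ones were led by *MRPL50* (YNR022C, relative of bacterial L9) at −0.83, *MRPL16* (YBL038W, relative of L16) at −0.80 and *MRPL28* at −0.80. The main count of members called depended on single libraries: it was 2 without WT replicate 3, 3 without *snf1*∆ replicate 1 and 4 without *snf1*∆ replicate 2. Without the 2 doubtful libraries it was 12, with 3 higher (beside 25% of all genes) and 9 lower (beside 26.5%). In that fit *MRPL4* was the lowest at −1.08, followed by *MRPL50* (−0.88), *MRPS16* (−0.87) and *MRPL16* (−0.80), and the 3 higher were *MRPS8* (0.74), *MRPL19* (0.66) and *MRPL33* (0.45). JS1416 had 0 members higher than WT at 48 hr (beside 15.8% of all genes) and 11 lower (beside 15.2%), with *MRPS17* (−0.88), *MRPL16* (−0.81) and *MRPL28* (−0.81) at the head. That count was 2 without WT replicate 3, 5 without JS1416 replicate 2 and 18 without the 2 doubtful libraries, and 16 members had an unadjusted p under 0.05. Of those 18, 1 was higher (*MRPL3* at 0.71, beside 20.3% of all genes) and 17 were lower (beside 22%), with *MRPS17* (−1.20), *MRPL31* (−1.11) and *MRPL16* (−0.99) the lowest. *MRPL28* stayed lower than in WT in both mutants in the fits without the doubtful libraries (−0.67 in *snf1*∆ and −0.94 in JS1416).

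Between JS1416 and *snf1*∆ at 48 hr, edgeR called no member in either direction, as it called no gene at all (0% and 0% of all genes). DESeq2 gave 0 members too, and 0 had an unadjusted p under 0.05. Without the 2 doubtful libraries, 9 members were called, 2 higher (beside 21.8% of all genes) and 7 lower (beside 24%) in JS1416, and without JS1416 replicate 1 alone 3 were called. The 2 libraries were picked because each resembled the other strain, so leaving them out widens this difference by design. The calls gained follow in part from that choice. With both doubtful libraries left out, *MRPL33* had 36.3 and 46.0 CPM in JS1416 replicates 2 and 3, against 75.2 and 64.7 CPM in *snf1*∆ replicates 1 and 2 (−0.87), and *MRPL24* (YMR193W, relative of bacterial L28) had 36.7 and 48.6 CPM in JS1416, against 91.6 and 98.7 CPM in *snf1*∆ (−1.28). JS1416 replicate 3 held 747098 counts in all, the fewest of any library.

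Over the 9 groups the members had no common profile. The median Pearson r between pairs of members across the 9 group means in log2 CPM was 0.089 (703 pairs, 45% of them below 0), beside 0.245 for the other mitoribosomal genes, 0.969 for the respiratory chain list and 0.991 for the cytosolic ribosomal list. *MRPL9*, at r = 0.93, and *MRPL31*, at r = 0.87, followed the mean of the remaining members most closely, and *MRPL25*, at r = −0.61, and *MRPL37*, at r = −0.51, ran against it. These values describe 9 points that share libraries and scaling, and they carry no test. The widest ranges of group means were those of *MRPS17* (2.43 on the log2 scale), whose lowest value is that of the single JS1416 log library, and *MRPL28* (2.38). *MRPL22* (YNL177C, relative of bacterial L22) and *MRPS28* (YDR337W, relative of S15) were called in none of the comparisons of the main analysis. Without the 2 doubtful libraries *MRPS28* was called higher in *snf1*∆ at 48 hr against 24 hr (0.70) and lower in JS1416 at 48 hr against *snf1*∆ (−0.87) and WT (−0.61), and *MRPL22* was not called in any comparison with a 48 hr group. In the main analysis *MRPL10* (YNL284C, relative of L15) was called only in JS1416 against WT at 48 hr (−0.52, and −0.78 without the doubtful libraries), and *MRPL36* (YBR122C, relative of L31) only in *snf1*∆ at 24 hr against log (−0.37).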

How the data were processed

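Poly(A) RNA libraries of 3 strains at log, 24 hr and 48 hr were made with a directional kit. The authors aligned reads with Bowtie2 (genome build sacCer3), used bedtools for counting over ORFs, and deposited raw counts per ORF, with no coordinates. Versions and the strand setting are not given in the sources used here. The 24 columns were matched to samples by their labels.

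The test was that of edgeR 4.0.16 under R 4.3.3: TMM factors, filterByExpr by group (6616 genes kept, all 38 members among them, 36 of which had at least 10 counts in every library), 1 quasi-likelihood model with 9 groups, Benjamini-Hochberg adjustment over all genes tested and calls at an adjusted p under 0.05. CPM are scaled by TMM. For log2 CPM the prior count was 2. The SE of a log2 fold change was derived from the quasi-likelihood F. The labels do not say whether replicates were separate cultures, and the methods describe triplicate cultures, so p-values measure the spread between these libraries. WT replicates 1 and 2 at 24 hr differed little beyond counting noise (chi-square per degree of freedom 1.62, beside 18.9 and 21.4 with replicate 3). So did *snf1*∆ replicates 1 and 2 at 48 hr (2.06, beside 75.6 and 73.2 with the doubtful replicate 3). Whether these pairs were separate cultures was not tested. With 2 JS1416 libraries at 24 hr, that group is assumed to vary like the others. The code was tested on simulated data with known changes.

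Members and gene lists were chosen with earlier results of these data known. Values in every library are given for the 3 members with the greatest change in each direction among those called, with libraries that do not overlap, in WT at 24 hr against log, *snf1*∆ against WT at 24 hr and JS1416 against *snf1*∆ at 24 hr. Members at 48 hr given by library were chosen after their values were seen. Of each other list the most changed gene called in each direction could be named, and *PUF3*, *HAP4* and *SNF1* always. Sequences came from the RefSeq R64 assembly and annotation (R64 is the NCBI release of the sacCer3 genome), to which 5988 ORFs of the table were matched by name, using Python and pandas.

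Replicate numbers are shared between groups. Deviations from group means of equal-numbered libraries correlated above 0.1 in all 3 pairs only for *snf1*∆ and WT at log (0.327, 0.514 and 0.128). For that pair the number was also added as a block, a term shared by all 9 groups of the model. Alternatives were RLE size factors, library size alone, no filter, DESeq2 1.42.0, only the groups compared, the replicate block, each library left out, the 2 doubtful 48 hr libraries left out and other sequence windows.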

Additional observations from a re-analysis of the deposited data

Results flagged for a closer look

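The change from log to 24 hr differed between *snf1*∆ and WT for 20 of the 38 members, by the test of the difference itself in the edgeR model (adjusted p under 0.05). The same test called 29.3% of all genes above 0 and 25.6% below 0, so 20 of 38 is about the share found over all genes. For 6 members the difference, as the log2 change in *snf1*∆ minus that in WT, was above 0. It was 1.61 for *MRPL32*, 0.90 for *MRPL17*, 0.83 for *MRPL11*, 0.79 for *MRPL25*, 0.78 for *MRPL38* and 0.69 for *MRPL37*. All 6 encode large subunit proteins, as do 30 of the 38 members.

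For 14 members it was below 0. The widest differences were those of *MRPL8* (−1.44), *MRPL28* (−1.29), *MRPL33* (−1.25), *MRPL31* (−1.18), *MRPS18* (−1.18), *MRPL23* (−1.09) and *MRPS17* (−1.05). *MRPS8* (−0.78), *MRPL9* (−0.72), *MRPL51* (−0.66), *MRPL35* (−0.61), *MRPL7* (−0.57), *MRPL19* (−0.57) and *MRPS9* (−0.52) followed. Groups held at most 3 libraries, so no single library was tested against the others of its group.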

How the results depend on the processing

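Of 172 recomputed counts of members called, 147 were within 1.5 times the main count, and the cause of the other shifts was not tested. These counts take both directions together, and 0 against 0 passed, so they do not show that a split held. JS1416 against *snf1*∆ at 24 hr with library size alone passed, at 2 higher and 18 lower beside 11 and 4 in the main analysis. Library size alone called 27 members in WT at 48 hr against 24 hr, 11 in JS1416 at 48 hr against 24 hr, 27 for *snf1*∆ against WT at 48 hr, and 16 and 23 for JS1416 against WT at 24 hr and 48 hr. It turned *MRPL7* (−0.022), *MRPL51* (−0.10) and *MRPS9* (−0.21) in WT at 24 hr against log, *MRPL6* (0.0089) in *snf1*∆ against WT at 24 hr, and *MRPL7* (−0.24), *MRPL23* (−0.14), *MRPL35* (−0.049), *MRPS8* (−0.0069), *MRPS17* (−0.0043), *MRPS18* (−0.083), *MRPS35* (−0.41) and *PUF3* (−0.26) in JS1416 against *snf1*∆ at 24 hr. RLE size factors and DESeq2 each called 3 in JS1416 at 48 hr against 24 hr. With only the groups compared, counts were 24 in *snf1*∆ at 24 hr against log, 0 in JS1416 at 48 hr against 24 hr, 2 for *snf1*∆ against WT at 48 hr, 24 for JS1416 against *snf1*∆ at 24 hr and 1 for JS1416 against WT at 48 hr. Without the 2 doubtful libraries, they were 20 in *snf1*∆ and 7 in JS1416 at 48 hr against 24 hr, 9 for JS1416 against *snf1*∆ and 18 for JS1416 against WT at 48 hr. The replicate block was a term shared by all 9 groups, although only *snf1*∆ and WT at log (0 members with it) had correlated numbers. It gave 3 in JS1416 at 48 hr against 24 hr and kept every other count of members within 1.5 times.

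Leaving out 1 library at a time gave 19 to 23 members in WT and 10 to 13 in *snf1*∆ at 24 hr against log, 7 to 12 in WT, 9 to 19 in *snf1*∆ and 1 to 4 in JS1416 at 48 hr against 24 hr, 0 for *snf1*∆ against WT at log, 23 to 28 at 24 hr and 2 to 10 at 48 hr, 10 to 14 for JS1416 against *snf1*∆ at 24 hr and 0 to 3 at 48 hr, 6 to 10 for JS1416 against WT at 24 hr and 2 to 15 at 48 hr, and 16 to 19 for the difference in response. The 4 in JS1416 at 48 hr against 24 hr came without JS1416 replicate 1 at 48 hr. Where 1 library is left in a group, it is assumed to vary like the others.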
